A study of Ovis aries with 18 samples.

Results

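AADAT and CCBL1 encode 2 of the kynurenine aminotransferases, and both were chosen because they ranked high for allelic imbalance in gene expression (AI), the unequal representation of 2 alleles among the RNA-Seq reads of a heterozygous animal. They are 2 of the 5810 genes in the table and hold 44 of its 24355 single nucleotide polymorphisms (SNPs), 14 in AADAT and 30 in CCBL1. All SNPs carrying either gene name were used. The samples were perirenal adipose tissue (PRAT) from 18 wild type fetuses of the pure bred merino breed, 16 female and 2 male, each a singleton of 1 common sire and collected at 132 days of gestation. They form 1 group with no treatment, so the comparisons below are between alleles, between SNPs and between animals. The alleles are those of the Oar v3.1 genome assembly (the reference allele) and the alternate base, and a heterozygous animal is one called 0/1 by the authors from the same RNA reads.

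Kynurenine aminotransferases convert kynurenine, a product of tryptophan breakdown, into kynurenic acid, a metabolite with signalling roles in nerve and immune cells. AADAT (kynurenine aminotransferase II) is a mitochondrial enzyme that also acts on 2-aminoadipate in lysine degradation, whereas CCBL1 (kynurenine aminotransferase I, also named KYAT1) additionally cleaves cysteine conjugates. Perirenal fat of the fetal lamb is a brown adipose depot that produces heat after birth.

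The reads counted over all SNPs ranged from 2970824 to 5334585 per animal. Across the 153 pairs of animals between 43.6% and 63.5% of genotype calls were identical, and no pair of libraries differed by less than 3.79 times the sampling noise (chi-square per degree of freedom). The columns of 1 animal are named PS910 and were taken as RS910, the only sample title with that number. RS929, labelled female, was heterozygous at 29.1% of X-linked SNPs, between the 2 males at 25.4% and 32.4% and below the 54.1% of the next female, and it was kept because both genes are autosomal. Of the marker genes of brown adipocytes, 6 of 9 had SNPs in the table, among them UCP1 with 2460 ± 654 reads per SNP per 1000000 SNP reads (SD, n = 18), as did 4 of 9 adipocyte, 2 of 3 endothelial and 1 of 6 adrenal cortex markers (STAR, 11.4 ± 2.02 on the same scale) and none of the 6 kidney, 5 skeletal muscle and 4 blood and immune markers. The table lists a gene only where SNPs passed the authors' filter, so a gene missing from it may still have been expressed.

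The level of a gene was taken as its mean number of reads per SNP per 1000000 SNP reads of the animal, which does not depend on gene length. AADAT had a lowest, median and highest level of 32.6, 41.0 and 53.7 (mean 41.8 ± 6.68, SD, n = 18). CCBL1 had 43.6, 47.5 and 62.0 (mean 48.6 ± 4.77, SD, n = 18). These levels were above those of 83.1% and 85.6% of the 5810 genes. The ranges of the 2 genes overlapped, and CCBL1 was the higher one in 13 of the 18 animals. RS910 and RS953 had the highest CCBL1 levels, at 62.0 and 56.6, and RS937 and RS903 the highest AADAT levels, at 53.7 and 51.2.

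**Figure D1:**
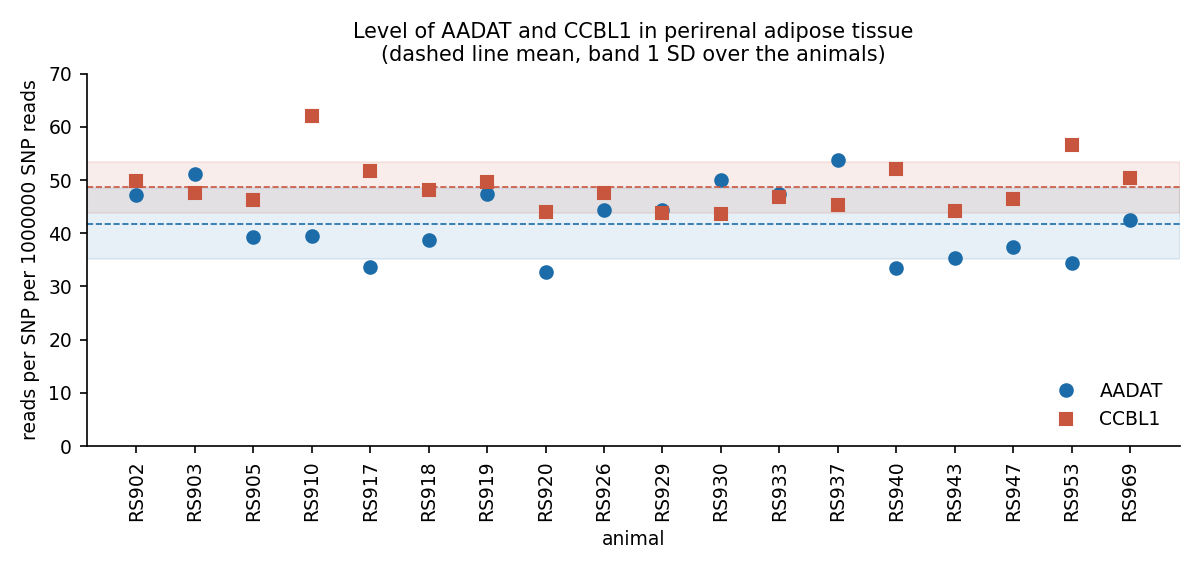
Level of AADAT (circles) and CCBL1 (squares) in each of the 18 animals, in reads per SNP per 1000000 SNP reads. Dashed lines are the means of 41.8 and 48.6 and the bands are 1 SD; the 2 bands overlap, and the CCBL1 value of RS910 (62.0) stands above its band.

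The AADAT SNPs lay on chromosome 2 between positions 109929542 and 109981955, a span of 52413 bp, and comprised 2 missense, 4 synonymous and 8 3′ untranslated region (UTR) SNPs. SNPs are numbered below in order of position and named by reference base, position and alternate base. The reference share, the reference reads divided by all reads after summing over heterozygous animals, ranged from 0.298 to 0.913 with a median of 0.550, whereas the median of all tested SNPs was 0.519. AI was called by a Poisson likelihood ratio test, modelled on that of the study, at unadjusted P under 0.05, at 12 of the 14 SNPs (8 with the reference and 4 with the alternate allele higher). Over all tested SNPs 45% passed this test, 33.8% with the reference and 11.1% with the alternate allele higher. With Benjamini-Hochberg adjustment 12 of 14 were still called, beside 38% of all SNPs. With animals as replicates, in a quasi-binomial test, 10 of the 14 were called, and SNPs 3 and 14 lost their calls. This test called 8345 of the 24244 SNPs tested over the whole table. The genes were chosen by the Poisson test, so these counts are a description.

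The AADAT SNPs were divided into 2 sets after their values had been seen, so the difference in share between the sets is a description. The first was a run of 5 A-to-G SNPs within 84 bp of the 3′ UTR, SNPs 7, 9, 10, 11 and 12, and the second was the other 9 SNPs. The second set includes SNP 8 (G109981551A), which lies within the same 84 bp, and SNP 5 (A109971578G), which is also A-to-G. At the run the summed reference share was between 0.780 and 0.913. At the other SNPs it was between 0.298 and 0.611.

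At the other 9 AADAT SNPs the reads followed the genotype calls. Animals called homozygous had at most 2 reads of the allele they were called to lack, in 104 of 104 combinations of animal and SNP with at least 20 reads. None of the 162 combinations of animal and SNP lay in the range of 1 to 25% alternate reads, and both kinds of homozygote were found, with 25 calls homozygous for the alternate allele. The imbalance at these SNPs was moderate and went in both directions. The alternate allele was higher at 4 of the 7 that were called and the reference allele at 3, of which SNP 8 alone kept its call with animals as replicates.

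The alternate allele was higher at SNP 13 (A109981770C), in the 3′ UTR, in all 7 heterozygous animals. The reference shares there were lowest in RS920 at 0.220, had a median of 0.306 and were highest in RS940 at 0.361 (mean 0.295 ± 0.0521, SD, n = 7), and the other 11 animals were called homozygous for the alternate allele. This is the largest departure from an equal share among the 9 SNPs, and the spread between animals there was close to counting error, with a dispersion of 1.34. Dispersion here is the Pearson chi-square of the reference share between heterozygous animals divided by its degrees of freedom, so that 1 is counting error alone.

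The remaining SNPs with a higher alternate allele were the synonymous SNPs 4, 5 and 6, and there the animals differed. At SNP 4 (G109971530A) RS910, RS917 and RS918 had reference shares of 0.274, 0.323 and 0.359, whereas RS926, RS929 and RS969 had 0.508, 0.540 and 0.515. At SNP 6 (G109981060A) RS918, RS910 and RS917 again had the low shares, of 0.300, 0.350 and 0.379. RS903, RS937 and RS919 had 0.465, 0.466 and 0.503 there. Thus at each of these SNPs 3 animals had fewer reference reads and the other 3 had nearly equal numbers of both alleles.

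The animals with nearly equal shares were those heterozygous at SNP 8 (G109981551A) in the 3′ UTR. The same 6 animals, RS903, RS919, RS926, RS929, RS937 and RS969, were heterozygous at SNP 3 (T109929631C, missense), SNP 8 and SNP 14 (T109981955G, 3′ UTR), which lie up to 52324 bp apart. At SNP 5 (A109971578G) the 3 of them that were heterozygous had shares of 0.490 to 0.545, and the 6 heterozygous animals that lacked the SNP 8 heterozygous call had 0.367 to 0.433. Of the 9 SNPs with heterozygous animals of both kinds, the ranges were separate at 3, which are SNPs 4, 5 and 6. The share of all SNPs of the table with separate ranges is not given, so this count is a description. This grouping was made after the shares had been seen, so no test was applied. At SNPs 1 and 2 (T109929542C and A109929552T) the grouping did not hold. RS953 had shares of 0.611 and 0.626 beside 0.364 and 0.326 in RS918. RS926, RS929 and RS969, heterozygous at SNP 8, had 0.606 to 0.645 and 0.594 to 0.652 there, so their shares were not nearly equal either.

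The spread between animals was tested with the Pearson chi-square test of homogeneity and Benjamini-Hochberg adjustment over all 24205 SNPs with at least 2 heterozygous animals, a measure that had no part in ranking the genes. It was called at 9 of the 14 AADAT SNPs, beside 15.4% of all SNPs tested. Deeper coverage makes a call by this test easier. The mean reads per AADAT SNP were 131 to 280 in single animals, whereas the median SNP of the table had 65.5. The part of depth in these calls was not tested. SNP 4 had the largest dispersion of the gene, 16.02 (adjusted P = 5.02e-14 by this chi-square test), and kept the call without any 1 animal, with 12.1 as the lowest value without RS910. SNP 7 had the smallest, 0.454. The calls at SNPs 8 and 14 (adjusted P = 0.0156 and 0.0450 by the chi-square test) rested on single animals: SNP 8 lost its call without RS926 or RS937, and SNP 14 without any of RS903, RS926, RS929 or RS937.

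**Figure D2:**
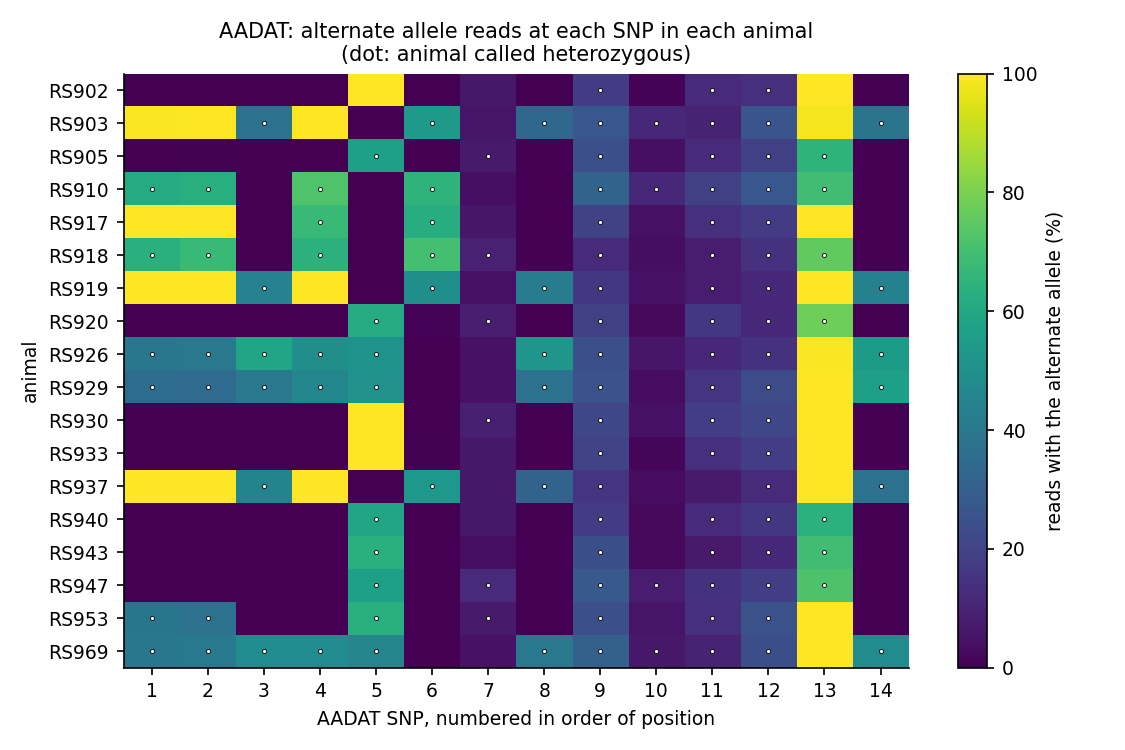
Percentage of reads with the alternate allele (colour) at the 14 AADAT SNPs (columns, in order of position) in the 18 animals (rows); a dot marks an animal called heterozygous. SNPs 7 and 9 to 12 are faintly coloured in every animal (0.800 to 31.8%), whereas the other SNPs show intermediate animals, animals at or near 0 (except at SNP 13) and, at SNPs 1, 2, 4, 5 and 13, animals at or near 100%.

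At the 5 A-to-G SNPs of the AADAT 3′ UTR every animal had reads of both alleles. The alternate base held between 0.800 and 31.8% of the reads over the 90 combinations of animal and SNP, with a median of 11.7%, and no combination had 0 alternate reads. No animal was called homozygous for the alternate allele. The reference allele was the higher one in every heterozygous call. Of all SNPs listed 16.3% were A-to-G, and of all 3′ UTR SNPs 17.4% were.

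SNP 11 (A109981601G) had the largest chi-square for AI in the gene, with 17 animals called heterozygous. The reference share had a lowest value of 0.810 in RS910, a median of 0.877 and a highest value of 0.932 in RS943 (mean 0.874 ± 0.0349, SD, n = 17). The only animal called homozygous for the reference allele, RS937, still had 18 alternate reads beside 231 reference reads, 7.23%. That value lay above the 6.84% of RS943, which was called heterozygous, so the 2 kinds of call did not separate by the reads.

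The neighbours of SNP 11 followed the same form at other heights. SNP 9 (A109981564G) was heterozygous in all 18 animals, with a lowest alternate percentage of 12.1% in RS918, a median of 22.7% and a highest of 31.8% in RS910. SNP 12 (A109981612G) was also heterozygous in all 18, at 11.01, 17.9 and 27.0%. Both differed between animals beyond counting error (dispersion 2.79 and 2.94, adjusted P = 0.00166 and 0.000770 by the chi-square test), and RS910 and RS903 were among the animals with the most alternate reads at both.

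At SNP 7 (A109981528G) and SNP 10 (A109981593G) most animals were called homozygous for the reference allele, yet the alternate base was present in them. SNP 7 had 12 such animals with 3.92 to 6.54% alternate reads and 6 heterozygous animals with reference shares of 0.880 to 0.928. SNP 10 had 14, with 0.800 to 5.88%, and 4 heterozygous animals with shares of 0.883 to 0.934. Altogether 25 of the 27 homozygous combinations at the 5 SNPs held at least 2% of the other allele, and these were all the AADAT combinations that did. Because genotypes were called from RNA, a DNA variant and a base changed in the RNA cannot be told apart here.

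Reference shares of neighbouring SNPs were compared in the same animals by a sign-flip permutation test (two-sided, exact below 10 animals). P values were adjusted over the 11695 neighbouring pairs of the table. Which alleles lay on the same chromosome copy was not determined, so unlike reference shares need not be unlike imbalance. The reference share of SNP 11 was higher than that of SNP 12, 11 bp away, by 0.0579 ± 0.0488 (SD, n = 17), in 16 of 17 animals (adjusted P = 0.00539, permutation test). At this distance most reads cover both positions. The other 3 AADAT pairs were not called, although the difference between SNPs 12 and 13, 158 bp apart, was 0.537 ± 0.0875 in the same direction in 7 of 7 animals (adjusted P = 0.0917, exact permutation test), where 0.0156 is the smallest unadjusted P that 7 animals allow.

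The CCBL1 SNPs lay on chromosome 3 between positions 7480515 and 7506452, a span of 25937 bp, and numbered 30, where the median gene of the table had 3. They comprised 14 missense (46.7%, beside 19.8% of all SNPs), 11 synonymous, 4 3′ UTR and 1 5′ UTR SNP. Transitions, exchanges between A and G or between C and T, made up 53.3% of them, beside 78.1% of all SNPs and 78.6% of those in AADAT. The summed reference share ranged from 0.406 to 0.914 with a median of 0.860. All 30 SNPs were called for AI, 27 with the reference and 3 with the alternate allele higher, and this too is a description of the measure that chose the gene. With animals as replicates 28 were called, 27 with the reference and 1 with the alternate allele higher, since SNPs 22 and 24 lost their calls.

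Low but present alternate reads were the common state of CCBL1. Of the 540 combinations of animal and SNP, 392 (72.6%) had between 1 and 25% alternate reads, beside 4.15% of all combinations with at least 20 reads in the series. Of the 372 heterozygous calls of the gene, 293 had under 25% alternate reads. Reads of heterozygous calls ranked the gene for AI, so this contrast largely follows from the choice and is a description. Another 69 combinations had under 1%, 65 had 25 to 75% and 14 had 75% or more. No animal was called homozygous for the alternate allele at any CCBL1 SNP.

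A group of 11 SNPs was heterozygous in at least 15 animals with a reference share above 0.75. These were SNPs 3 to 5, 10 to 12, 16 to 18, 20 and 21, of which 6 were missense and 5 synonymous. Their summed reference shares lay between 0.840 and 0.867, and the reference allele was the higher one in 187 of 187 heterozygous calls, with shares of single animals from 0.743 to 0.937. The group was picked by its reference share, so the direction of these calls follows from that choice and is a description. In all 18 animals, whatever the call, alternate reads made up 2.89 to 25.7%. In total 14 CCBL1 SNPs were heterozygous in at least 15 animals and 10 in all 18, whereas 9.89% and 5.42% of all SNPs were.

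SNP 20 (C7505347T, synonymous) had the largest chi-square for AI in the gene and was heterozygous in all 18 animals. The reference share was lowest in RS903 at 0.754, had a median of 0.857 and was highest in RS969 at 0.900 (mean 0.848 ± 0.0415, SD, n = 18). RS903 and RS910 (0.763) lay lowest and the other 16 between 0.801 and 0.900. The dispersion was 3.30 (adjusted P = 0.000107 by the chi-square test).

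Some of these SNPs lay close together and gave nearly the same values. SNPs 3, 4 and 5 (G7498396C, C7498399T and C7498400G), within 4 bp, had mean reference shares of 0.843, 0.841 and 0.840, and the differences between neighbours of this trio, 0.00134 and 0.00117, were not called (adjusted P = 0.671 and 0.143, permutation test, n = 18).

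A second group of CCBL1 SNPs divided the animals. SNP 1 (C7480515A), the only SNP in the 5′ UTR, was heterozygous in RS902, RS903, RS918, RS926, RS930, RS933, RS937 and RS947, and the other 10 animals had 0 alternate reads in 43 to 96 reads each. The reference share in the 8 was lowest in RS926 at 0.636, had a median of 0.721 and was highest in RS902 at 0.912, over 33 to 51 reads. This was the shallowest SNP of the gene, with a median of 48.5 reads per animal.

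The same 8 animals stood apart at 5 of the other 29 CCBL1 SNPs, between 21944 and 25861 bp from SNP 1. The share of all SNPs of the table that separate these animals is not given, so this count is a description. At SNPs 14, 22 and 24 (C7502459T, G7505389A and C7505516T, all synonymous) every animal was called heterozygous, and these are the 3 SNPs with the alternate allele higher over all animals. The 8 had reference shares of 0.581 to 0.719, 0.624 to 0.757 and 0.549 to 0.739 at the 3 SNPs. The other 10 had 0.164 to 0.347, 0.234 to 0.366 and 0.211 to 0.339. The alternate allele was thus higher in 10 animals and the reference allele in 8, and the ranges did not overlap.

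At SNPs 26 and 27 (C7506315A, missense, and G7506376T, 3′ UTR) the 8 animals had shares moderately above equality and the others mostly reference reads. Their shares were 0.524 to 0.633 and 0.542 to 0.646, with medians of 0.595 and 0.574. In the other 10, whatever their call, the shares were 0.838 to 1 and 0.870 to 1, with medians of 0.942 and 0.941. Of these 10, 8 were called homozygous for the reference allele at SNP 26 and 6 at SNP 27. Here the animals thus differed largely by genotype call and not by imbalance within heterozygous animals. The animals were compared by a call chosen after the shares had been seen, so no test is given.

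**Figure D3:**
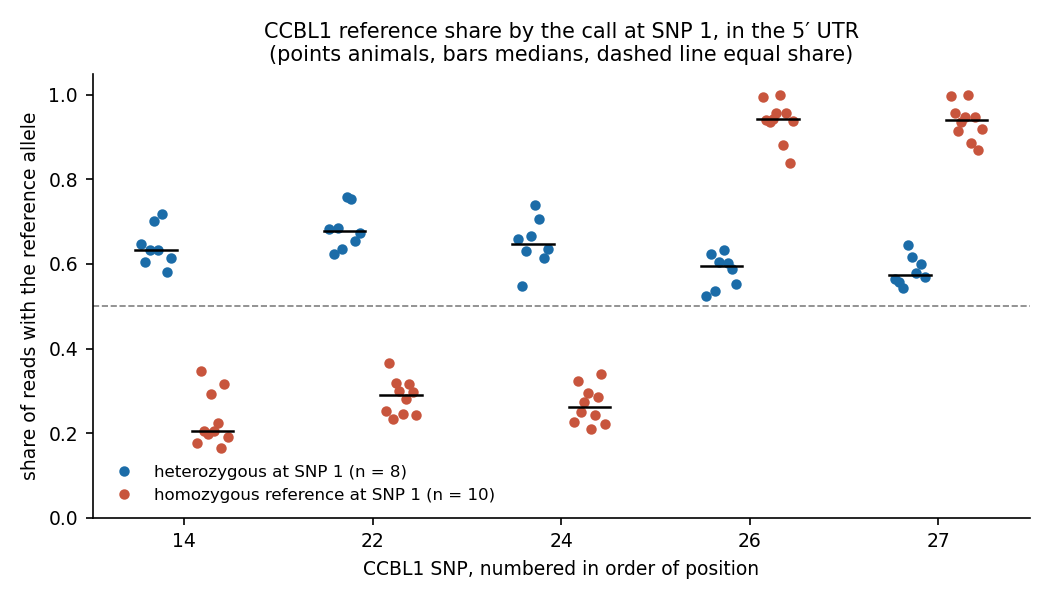
Share of reads with the reference allele at the 5 CCBL1 SNPs that divided the animals, for the 8 animals heterozygous at SNP 1 (blue) and the 10 that were homozygous for the reference allele there (red); points are animals, black bars medians. The 2 groups do not overlap at any of the 5 SNPs, and the red points lie below the dashed line of equal share at SNPs 14, 22 and 24 and near 1 at SNPs 26 and 27. Animals are shown whatever their call at the SNP, and 8 red points at SNP 26 and 6 at SNP 27 were called homozygous for the reference allele.

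These SNPs had some of the largest spreads between animals in the gene. The dispersion was 32.0, 31.3 and 35.6 at SNPs 14, 22 and 24 and 18.7 and 32.5 at SNPs 26 and 27, where the median of all SNPs was 1.41. All 5 kept the call without any 1 animal. Dispersion counts heterozygous animals only. Besides the animals heterozygous at SNP 1, these were RS940 and RS953 at SNP 26, and RS917, RS940, RS953 and RS969 at SNP 27. Without RS940 the dispersion at SNP 26 was 10.2, and without RS917 that at SNP 27 was 26.6. In total 22 of the 30 CCBL1 SNPs differed between animals (15.4% of all SNPs), with a median dispersion of 3.64. CCBL1 was also read more deeply than the median SNP, with a mean of 148 to 287 reads per SNP in single animals, beside 65.5. The part of depth in these values was not tested.

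Within single animals, some SNPs a few bases apart differed in their share. SNP 21 (C7505361G) had a mean reference share of 0.841 and SNP 22, 28 bp away, 0.462, a difference of 0.379 ± 0.212 (SD, n = 18) in the same direction in 18 of 18 animals (adjusted P = 0.00114, permutation test), with the 2 shares on opposite sides of equality in 10 of them. SNP 23 (G7505508A) and SNP 24, 8 bp apart, differed by 0.354 ± 0.237 in 12 of 12 animals (adjusted P = 0.00994, permutation test), with opposite sides in 5. SNPs 22 and 23, and SNPs 24 and 25, were called as well, so that 4 of the 24 CCBL1 pairs differed, beside 10.1% of all pairs tested. A pair 8 bp apart is covered by largely the same reads, which carried the alternate base at SNP 24 more often than at SNP 23. Which alleles lay on the same chromosome copy was not determined, so shares on opposite sides of equality need not be unlike imbalance.

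The largest dispersion of either gene, 71.2, was at CCBL1 SNP 15 (G7504744C, missense). RS910 had 182 alternate of 290 reads (62.8%) and RS905 114 of 199 (57.3%). The other 16 animals had between 0 and 16.1%, so 2 animals stood far above the rest. Without RS910 the dispersion was 49.0 and the call was kept (adjusted P = 1.44e-48 by the chi-square test). The smallest dispersion of the gene, 0.537, was at SNP 2 (A7496198G, missense).

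Some animals lacked alternate reads altogether at SNPs where the rest had a few per cent. RS910, RS940 and RS953 had at most 1 alternate read at SNPs 6, 13, 19, 23 and 25, of which SNP 6 (A7498489G) and SNP 25 (G7506134A) lie 7645 bp apart. At the same SNPs RS903, RS926, RS929, RS930 and RS947 had 7.38 to 25.3% alternate reads. The order was the reverse at SNPs 7, 8, 15, 28 and 29, where those 5 animals had at most 1 alternate read and RS910, RS940 and RS953 had 5.33 to 62.8%. SNP 7 (G7501830C) and SNP 29 (G7506417A) lie 4587 bp apart. No animal was in both sets, and the remaining 10 had alternate reads at all of these SNPs except SNP 13, where RS917 and RS969 had 0. Not counted among these is SNP 30 (G7506452C), where RS910, RS940 and RS953 also had 0 alternate reads. RS903, RS926, RS929, RS930 and RS947 had 2.98 to 9.17% there, but 9 animals in all had 0.

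**Figure D4:**
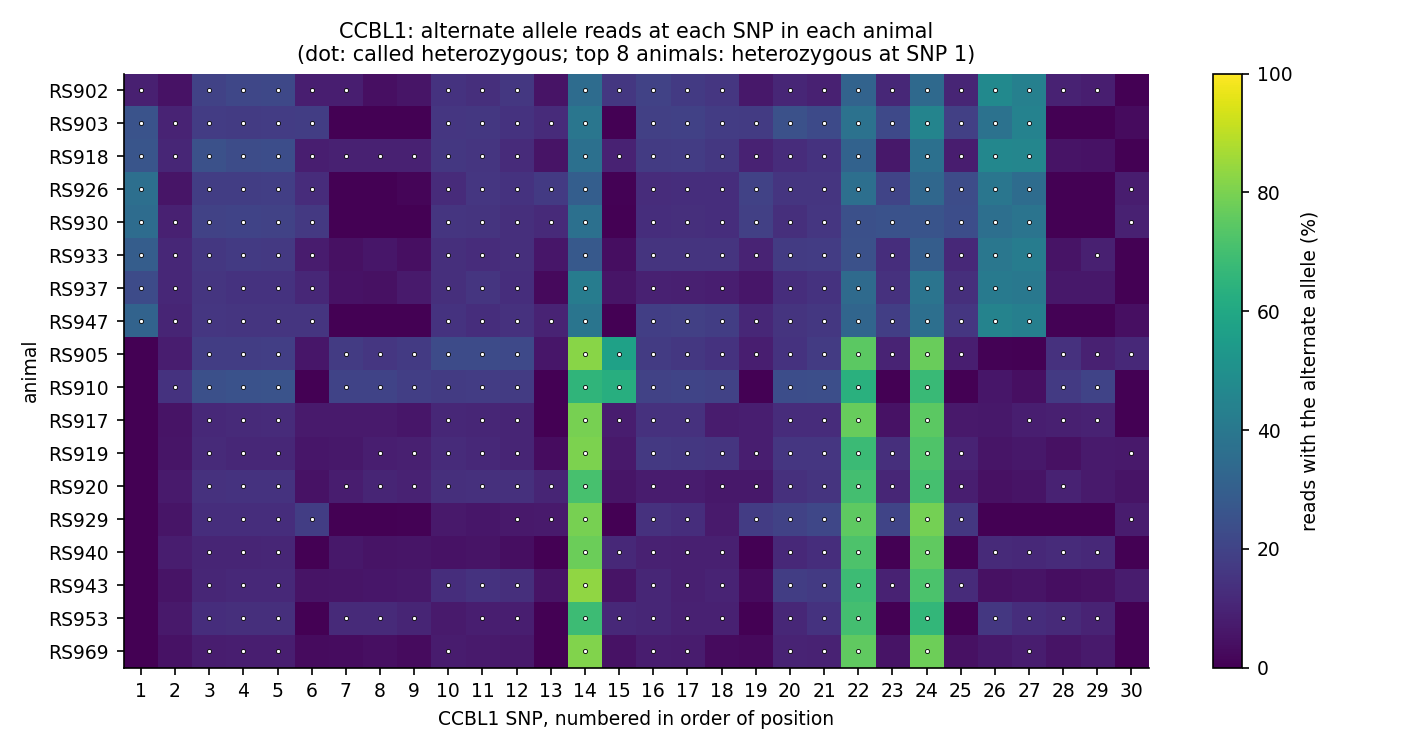
Percentage of reads with the alternate allele (colour) at the 30 CCBL1 SNPs (columns, in order of position) in the 18 animals; a dot marks an animal called heterozygous, and the top 8 rows are the animals heterozygous at SNP 1. Most cells are dark (1 to 25%), the top 8 rows change colour at SNPs 14, 22, 24, 26 and 27, and RS910 and RS905 stand out at SNP 15.

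RS910 lay at the extremes at many CCBL1 SNPs. It had the highest alternate percentage of the 18 animals at 12 of the 30 SNPs (the next, RS905, at 4) and 0 alternate reads at 7. Without RS910 the spread between animals lost its call at 5 SNPs (SNPs 7, 8, 9, 21 and 29), and no other animal decided more than 1. RS910 also had the highest CCBL1 level (62.0), and the part of that level in these percentages was not tested.

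Homozygous calls were examined as a check for reads that a genotype does not account for. Of the 168 CCBL1 combinations called homozygous with at least 20 reads, 98 (58.3%, exact 95% interval 50.5 to 65.9%) held at least 2% of the other allele. In AADAT it was 25 of 131 (19.1%, 12.8 to 26.9%), and over the whole series it was 4.44%. The intervals cover counting error only, and combinations that share an animal or a read are not independent. At SNP 2 of CCBL1 all 11 homozygous animals held the alternate base, at 4.74 to 8.11%. At SNP 1 none of the 10 did. Reads of a related sequence placed on CCBL1 and reads of an alternate allele cannot be told apart in these counts.

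**Figure D5:**
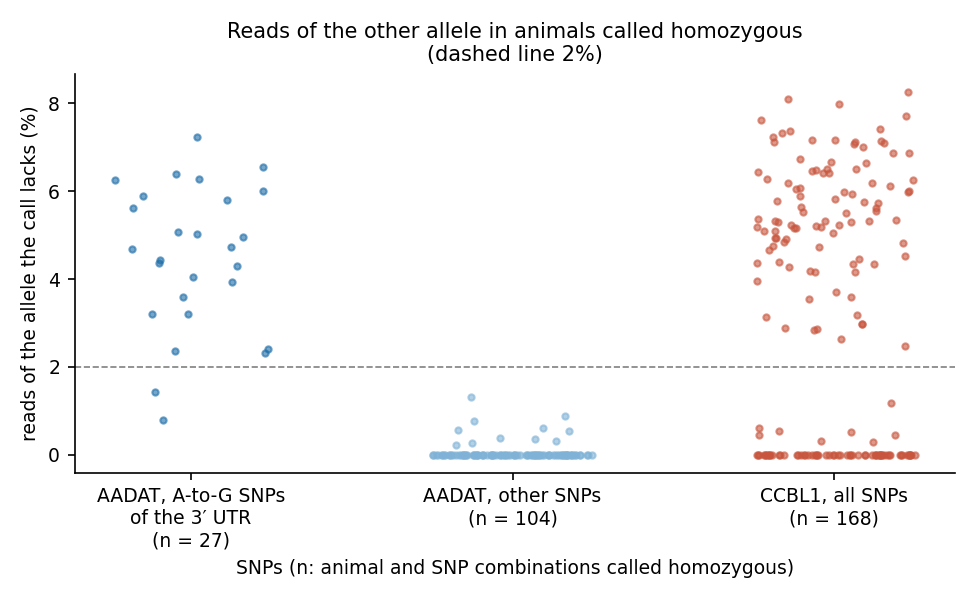
Percentage of reads of the allele that a homozygous call lacks, for each combination of animal and SNP with at least 20 reads; the dashed line is at 2%. The A-to-G SNPs of the AADAT 3′ UTR (25 of 27 above the line) and CCBL1 (98 of 168) have many points above it, and the other AADAT SNPs none of 104.

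The other genes of these pathways were taken from 3 lists, which held 44 gene symbols, older names included, besides AADAT and CCBL1. Of these 14 had SNPs, with 45 SNPs of which 44 could be tested. AI was called at 26 of the 44 (59.1%, beside 45% of all SNPs), 24 with the reference and 2 with the alternate allele higher. Of these 26 calls 11 were in 1 gene, GOT2, which held 12 of the SNPs, so the share called rests largely on that gene. The median reference share of the list SNPs was 0.530, and 0 of them had a share more than 0.25 from equality.

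Of the other kynurenine aminotransferases, CCBL2 (also named KYAT3) had 2 SNPs and neither was called. Its SNP of smallest P had a reference share of 0.532 ± 0.0409 (SD, n = 6). GOT2, the mitochondrial aspartate aminotransferase, had 12 SNPs, of which 11 were called with the reference allele higher. Its leading SNP in the 3′ UTR had a share of 0.674 ± 0.151 (SD, n = 18), above 0.5 in 13 animals and below it in 5, with a dispersion of 120. NMNAT1, an enzyme of NAD synthesis, had a share of 0.582 ± 0.0596 (n = 5) at its single SNP, which was called. Of 2 SNPs each, SLC3A2, a subunit of an amino acid transporter, had 1 called and NMNAT3 had 0.

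Of the other aminotransferases, the alternate allele was higher in GPT2 (alanine aminotransferase) at 2 of 3 SNPs, with a reference share of 0.347 ± 0.0749 (SD, n = 8) below 0.5 in 8 of 8 animals. GOT1 and OAT each had 1 of 2 SNPs called, with shares of 0.576 ± 0.0410 (n = 9) and 0.589 ± 0.0503 (n = 8). In lysine degradation, the pathway that AADAT serves, 9 of 19 SNPs were called (47.4%), close to the 45% of all SNPs. All 9 had the reference allele higher, the more common direction over all SNPs too (33.8%, beside 11.1% with the alternate allele higher). These 9 were 5 of 9 in ALDH7A1, 2 of 2 in ACAT1 and 1 each in AASS and DHTKD1. DLD and HADH, with 1 SNP each, had shares of 0.493 and 0.502. The calls in AASS and DHTKD1 were lost with animals as replicates (P = 0.0516 and 0.206, limma quasi-binomial fit), and that in DHTKD1 also after adjustment (adjusted P = 0.109, likelihood ratio test). In ALDH7A1 4 SNPs were called with animals as replicates. None of these genes had shares as far from equality as the A-to-G SNPs of AADAT or most of CCBL1. AADAT and CCBL1 were chosen by their imbalance, and the A-to-G set was formed after its shares had been seen. This contrast therefore follows from the choice and is a description.

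The 2 genes did not vary together across animals. Pearson's r between their levels, on the log2 scale of this level plus 1, was -0.283 over the 18 animals. Among 5788 genes, those most like AADAT were SCFD1 (r = 0.760), CHI3L1 (0.702), HAGHL (0.694), GNPTG (0.680) and NSMF (0.679). Those most like CCBL1 were FAM49A (0.764), PRPF4B (0.761), PLA2G6 (0.75), TMEM62 (0.747) and LPGAT1 (0.729). Both values of a pair come from the same library and are scaled by its total, so these correlations are a description.

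The rank of AADAT for AI fell further than that of CCBL1 when SNPs heterozygous in nearly every animal were left out. After down-sampling each SNP in each animal to at most 50 reads, CCBL1 ranked 18 and AADAT 19 of 5795 genes. Reads were then summed over heterozygous animals, so SNPs heterozygous in more animals still had more reads. Without SNPs heterozygous in 15 or more animals they ranked 23 and 91 of 5599.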

How the data were processed

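RNA-Seq reads of 18 PRAT samples were aligned by the authors to Oar v3.1 with STAR (version not given in the sources used here), keeping uniquely placed reads with up to 10 mismatches, and SNPs and genotypes were called with GATK 3.4-46. The deposited values are raw counts of reference and alternate reads per SNP and animal, without normalization, with the genotype call. The authors' own test columns (chi-square, P, higher allele, reference proportion) were not used. Whether counting used the strand is not given in the sources used here. Samples formed 1 group, named from the labels, and each is a separate fetus.

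Reference and alternate counts were summed over heterozygous animals and tested by the Poisson likelihood ratio test (1 degree of freedom, statistic 2 times the log likelihood ratio, whereas the formula printed in the study has no such factor and the opposite sign). Per the study's methods, each allele of a listed SNP was covered by 10 or more reads in 5 or more animals. Down-sampling used at most 50 reads per SNP and animal, 20 rounds and random seed 1. Spread between animals used the chi-square test of homogeneity, and neighbouring SNP pairs with at least 6 shared heterozygous animals used 100000 sign flips. Adjustment was Benjamini-Hochberg over the whole table at 0.05. Python 3.11.15, numpy 2.4.6, scipy 1.17.1, pandas 2.3.3 and matplotlib 3.10.9 were used, and the quasi-binomial alternative used limma 3.58.1 in R 4.3.3. The procedures were tested on simulated data. The alternatives were another minimum coverage, another null share, other thresholds, other subsets of SNPs and leaving out each animal.

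The members and lists were chosen with earlier results of these data known. All SNPs of both genes are accounted for. Those given in full are the SNP of largest chi-square, those with the alternate allele higher, those of largest and smallest dispersion and those with most homozygous animals holding the other allele, and the SNPs of the groups described were added after their values were seen. Pathway genes are given with their SNP of smallest P, and likeness was limited to genes with at least 20 reads per SNP. Depth per SNP and animal was 33 to 566 reads for the 2 genes, which limits the precision of a single share.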

Additional observations from a re-analysis of the deposited data

Results flagged for a closer look

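In 2 of the 24 SNPs of AADAT and CCBL1 with 4 to 10 heterozygous animals, 1 animal lay outside the 95% critical value of Dixon's test for an outlying sample, where chance gives about 1 in 20. Both were RS910 in CCBL1. At SNP 2 (A7496198G) RS910 had a reference share of 0.855 (195 reference and 33 alternate reads), and the other 6 of 7 heterozygous animals had 0.890 to 0.907. The dispersion over the 7 animals there was 0.537, below counting error. At SNP 29 (G7506417A) it had 0.799 (266 and 67 reads), and the others had 0.884 to 0.918. Without RS910 the dispersion at SNP 29 fell from 5.11 to 0.391, and the call of a spread between animals there was lost (adjusted P = 0.906 by the chi-square test of homogeneity).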

How the results depend on the processing

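With at least 30 reads of each allele required, AI was called at 5667 SNPs of the whole table (10901 with 10) and at 24 SNPs of AADAT and CCBL1 (42), since fewer SNPs were tested (26 in the 2 genes). Without SNPs heterozygous in 15 or more animals, 25 SNPs of the 2 genes were called of 27 tested. With all animals counted whatever their call, the median reference share of AADAT was 0.813 in place of 0.550. At unadjusted P the spread between animals was called at 7137 SNPs (3717), and neighbouring pairs at 3095 (1177), 14 of them in the 2 genes (5). With pairs at least 200 bp apart, 145 were called, 1 of them in the 2 genes. With 5% of the other allele required in homozygous calls, 2.37% of all combinations, 8.40% of those in AADAT and 39.9% of those in CCBL1 passed. With 1% the share of all combinations was 6.78%, and with 50 reads 4.23%. From reference reads only, the levels of AADAT and CCBL1 were 30.3 and 41.0. Without the A-to-G SNPs of the 3′ UTR, an alternative chosen after seeing the data, 0% of homozygous AADAT combinations held the other allele.

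With each animal left out in turn, AI was called at 40 to 44 SNPs of the 2 genes and at 25 to 28 of the pathway lists, and the spread between animals at 7 to 9 AADAT and 17 to 23 CCBL1 SNPs. The median reference share was 0.535 to 0.567 in AADAT and 0.857 to 0.863 in CCBL1, and homozygous combinations with the other allele were 17.9 to 20.2% and 55.2 to 60.7%. The other alternatives stayed within 1.5 times the count, or within the spread, of the values reported. With animals as replicates, 10 AADAT and 28 CCBL1 SNPs were called for AI, beside 8345 of the 24244 SNPs tested. SNPs of 1 gene share animals, and those under 100 bp apart share reads, so counts of SNPs are not counts of independent observations.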
